A study of Mus musculus with 12 samples.

Results

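The 40 genes described here encode proteins of the neuronal cytoskeleton and of the synapse, and they were read in RNA sequencing of mouse embryonic calvaria, the flat bones of the skull vault. They were taken by symbol from a list of neuronal genes, without a threshold on a measured value, but the list was drawn up with earlier results of these data known. All 40 were found among the 39179 gene identifiers of the files, and all 40 were among the 17967 genes with enough counts to be tested. By role, 13 belong to the cytoskeleton of axons and dendrites, 4 encode neuronal RNA-binding proteins, 10 act in the release of synaptic vesicles and 5 make or load transmitters. Another 6 are transmitter receptors or a sodium channel, and 2 are adhesion molecules of axons.

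Tissue was taken at embryonic day 17.5 from C57BL/6 embryos bred from 8-week-old WT and Runx2+/- parents. Runx2+/- embryos carry 1 disrupted copy of Runx2, a master transcription factor of bone-forming cells, and the labels do not describe the allele. Dams had received vehicle or 10 mg/kg of MS-275 (entinostat, which blocks the class I histone deacetylases) by intraperitoneal injection on days 14.5 and 16.5 of gestation. The 4 groups, WT vehicle, Runx2+/- vehicle, WT MS-275 and Runx2+/- MS-275, hold 3 libraries each. Nothing in the labels says whether libraries of a group came from separate embryos or litters, and p-values below therefore measure only the spread between these libraries, which may be technical.

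Neurofilaments and microtubules, with the proteins that bind them, give axons their calibre and carry cargo along them. At the synapse, SNARE proteins and synaptotagmins fuse transmitter-filled vesicles with the membrane, and receptors on the next cell respond. Bone of the skull vault is entered by sensory and sympathetic axons, while the cell bodies that hold most neuronal mRNA lie outside it, in ganglia, brain and retina.

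Levels are TMM-scaled CPM, a gene's reads relative to all gene reads of its library after trimmed-mean correction for composition, and each set of 3 values follows replicates 1, 2 and 3. Libraries held 13307456 to 19399760 counts in genes, and 3 counts, the limit that a count of 0 allows, correspond to 0.120 to 0.279 CPM. This limit covers counting error only. Osteoblast markers were present in all 12 libraries, with summed levels of 1713 to 51303 CPM. Replicate 3 of Runx2+/- MS-275 stood apart from the other 5 MS-275 libraries and had a profile like that of vehicle libraries. Its first principal component was −106, within the range of the 6 vehicle libraries (−122 to 5.51), against 83.9 to 140.03 in the other MS-275 libraries. Its osteoblast marker sum was the lowest of all 12 libraries, and its reads outside genes were the highest at 22.2%. Runx2 itself stood at 45.5, 42.4 and 46.1 CPM (WT vehicle), 65.3, 32.8 and 58.1 CPM (Runx2+/- vehicle), 111, 131 and 88.2 CPM (WT MS-275) and 84.1, 93.5 and 34.1 CPM (Runx2+/- MS-275). The genotype groups overlapped under vehicle and under MS-275, and a count over the whole gene cannot tell the alleles apart. The label of that library was kept, and the main differences in Runx2+/- are given with and without it. Mitochondrial genes held 4.32% to 5.52% of gene counts in the 6 vehicle libraries and 12.7% to 24.2% in MS-275 libraries, except 9.48% in that library.

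Neuronal transcripts were plentiful in some calvarial libraries and scarce in others of the same group. The 40 genes together held 4904, 6295 and 512 CPM (WT vehicle), 3041, 6876 and 951 CPM (Runx2+/- vehicle), 407, 245 and 1132 CPM (WT MS-275) and 672, 421 and 4205 CPM (Runx2+/- MS-275). The high libraries were replicates 1 and 2 of both vehicle groups and replicate 3 of Runx2+/- MS-275, and the low ones included replicate 3 of both vehicle groups, so that the drug groups overlapped in either genotype. As a share of all counts in genes, the 40 genes ran from 0.0178% in WT MS-275 replicate 2 to 0.905% in Runx2+/- vehicle replicate 2. These same 5 libraries were the 5 highest for 36 of the 40 genes. The exceptions were Nefl, Nefm, Prph and Slc17a7. Runx2+/- vehicle replicate 2 was the highest library for 30 genes and WT MS-275 replicate 2 the lowest for 29. In bulk tissue, fewer neurons or axons and less of each transcript per cell cannot be told apart.

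**Figure D1:**
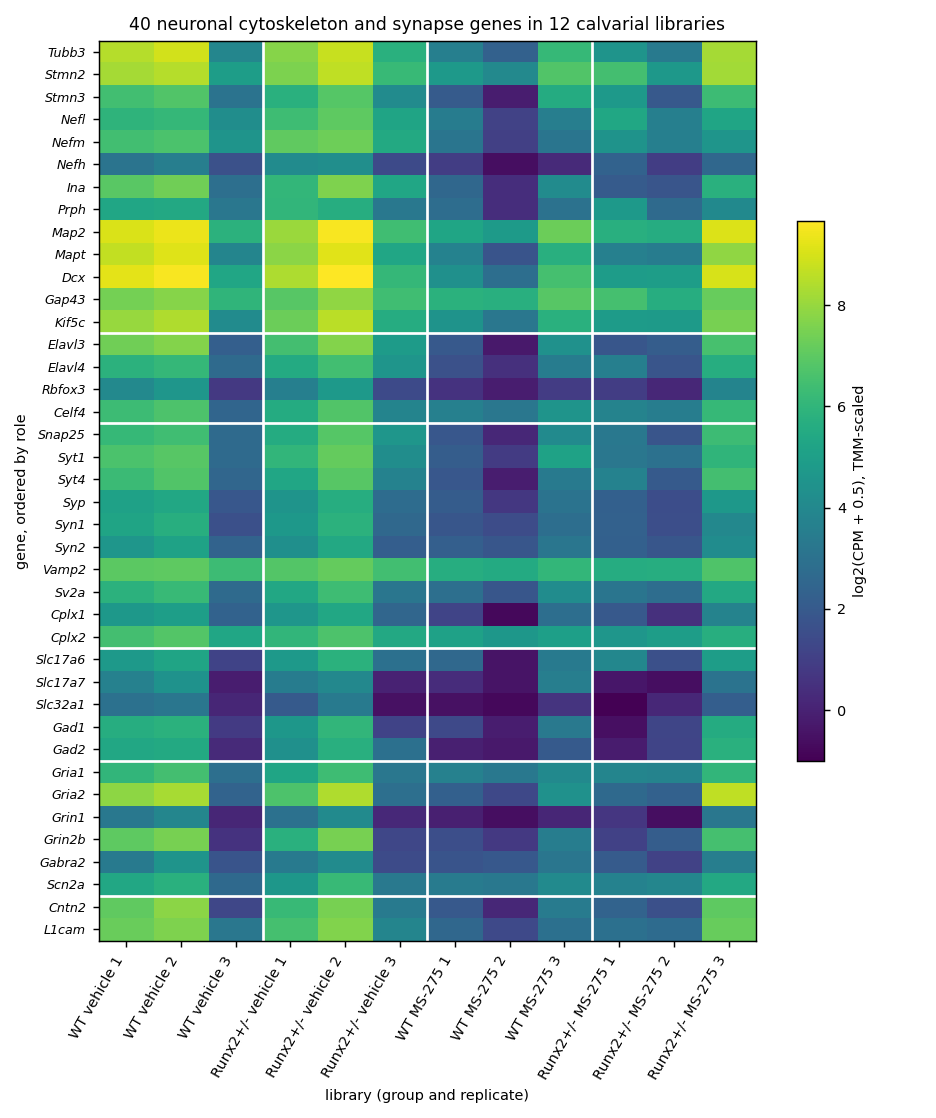
Level of the 40 genes (rows, ordered by role) in the 12 libraries (columns, ordered by group), as log2 of CPM plus 0.5, with white lines between roles and between groups. Bright columns are replicates 1 and 2 of both vehicle groups and replicate 3 of Runx2+/- MS-275, in which 36 to 39 genes reached 10 CPM against 5 to 26 in the other 7 libraries.

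Members varied together from library to library. Over the 12 libraries the Spearman rho between 2 members had a median of 0.90 over 780 pairs, 688 pairs were above 0.8 and the lowest was 0.60. Without replicate 3 of Runx2+/- MS-275 the median was 0.89 and 641 pairs were above 0.8. All genes of a library share its tissue makeup, which differed between libraries, so this is a description with no test. Tubb3, Stmn2, Stmn3 and Rbfox3 followed the median of the other members most closely, each with a rho of 0.993. Gria1 (0.818) and Gabra2 (0.825) followed it least, and Nefl, Gad1, Grin2b and Scn2a came next at 0.839. For 33 genes with more than 3 counts in every library, the highest level was 3.09 to 625 times the lowest. Vamp2 (3.09), Cplx2 (4.73) and Gap43 (4.76) had the narrowest ranges and Elavl3 the widest.

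Compared per kilobase of exon, which allows genes to be set side by side, mean levels in WT vehicle ran from 0.824 CPM per kb for Grin1, the obligatory NMDA receptor subunit, to 155 CPM per kb for Tubb3, the neuronal beta-tubulin. Gap43, a growth cone protein, followed at 97.8 CPM per kb, and Stmn3, a stathmin that destabilises microtubules, at 59.5 CPM per kb. In WT MS-275 Gap43 was the highest, at 49.3 CPM per kb, with Tubb3 at 15.5 CPM per kb. Spread between libraries of a group was wide. In WT vehicle Tubb3 had an SD of 247 CPM around a mean of 289 CPM (n = 3). There Tubb3 stood at 361, 491 and 14.3 CPM and Gap43 at 175, 209 and 62.2 CPM, with exon lengths of 1868 and 1523 bases. Tubb3 was thus the higher in replicates 1 and 2 and Gap43 in replicate 3, and their order was not the same in all 3 libraries.

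The comparison of MS-275 with vehicle asks how the drug given to the dam changed the transcriptome of the embryo's calvaria. In WT, 3 neurofilament genes and Cplx2 were lower with MS-275, and all 40 genes had a log2 fold change below 0. In these 2 groups mitochondrial genes held 4.36% to 4.73% and 12.7% to 23.0% of gene counts, and the part of this shift in these differences was not tested. The 4 genes that passed are 4 of 40, beside 19% of all genes tested that passed in either direction and 9.33% that passed as lower (edgeR quasi-likelihood test, adjusted p under 0.05 over 17967 genes). The median log2 fold change was −2.88 for the members and −0.13 for all genes. Groups did not overlap, with the 3 MS-275 libraries below the 3 vehicle libraries, for 7 members (Nefl, Nefm, Nefh, Prph, Vamp2, Cplx2 and L1cam), beside 27.5% of all genes. The share of members called lower was thus near that of all genes and the share without overlap below it. The errors of the members were wide, with a median SE of 1.295 on the log2 scale against 0.37 for all genes.

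The 4 calls lie close to the threshold and depend on single libraries, as do all calls of this comparison. The smallest edgeR adjusted p among all 17967 genes was 0.0434. Leaving out any 1 of WT vehicle replicates 1 and 2 or of the 3 WT MS-275 libraries left 0 genes called in the whole table, members included. Leaving out WT vehicle replicate 3, in which neuronal genes were low, gave 16 members called lower and 16.7% of all genes called lower. DESeq2 called 25 members lower beside 21.8% of all genes, and limma-voom 0 members and 1 gene.

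Neurofilament genes build the intermediate filaments of large axons. The light chain gene Nefl (chr14:68083863-68089095, plus strand, GRCm38, GENCODE M21) stood at 60.8, 67.9 and 18.4 CPM (WT vehicle), 80.4, 129 and 37.2 CPM (Runx2+/- vehicle), 10.8, 1.64 and 11.4 CPM (WT MS-275) and 40.03, 11.6 and 37.9 CPM (Runx2+/- MS-275). Every WT MS-275 library was below every WT vehicle library, while in Runx2+/- the replicates 1 and 3 with MS-275 were just above the lowest vehicle library. In WT, Nefl was 6.16-fold lower with MS-275, a log2 fold change of −2.62 (SE 0.79) with an edgeR adjusted p of 0.0469. In Runx2+/- the value was −1.46 (SE 0.75, edgeR adjusted p = 0.287), and −1.67 (edgeR adjusted p = 0.156) without replicate 3 of MS-275.

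The medium chain gene Nefm (chr14:68082590-68124846, minus strand) overlaps Nefl on the opposite strand. No source used here gives the strand setting of the read counter, so counts of both genes in the overlap are uncertain. Nefm levels were 87.3, 101 and 22.3 CPM (WT vehicle), 132, 158 and 44.0 CPM (Runx2+/- vehicle), 8.27, 1.56 and 8.28 CPM (WT MS-275) and 21.5, 11.6 and 22.8 CPM (Runx2+/- MS-275). Nefm was the 1 member whose drug groups were apart in both genotypes, and in Runx2+/- MS-275 replicate 3, where most members were high, it lay below all 3 vehicle libraries of its genotype. The heavy chain gene Nefh (chr11:4938754-4948064, minus strand) was scarcer, at 8.10, 11.4 and 2.62 CPM (WT vehicle), 17.2, 18.99 and 2.14 CPM (Runx2+/- vehicle), 1.43, 0.164 and 0.690 CPM (WT MS-275) and 4.64, 1.44 and 5.35 CPM (Runx2+/- MS-275), with 2 counts in WT MS-275 replicate 2.

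Both fell in WT, Nefm by a log2 fold change with value −3.53 (SE 0.76, edgeR adjusted p = 0.0434) and Nefh by one of −3.23 (SE 0.97, edgeR adjusted p = 0.0467). In Runx2+/- the values were −2.58 (SE 0.72, edgeR adjusted p = 0.181) and −1.74 (SE 0.88, edgeR adjusted p = 0.283), neither past the threshold. Without replicate 3 of Runx2+/- MS-275 they were −2.75 (edgeR adjusted p = 0.0370) and −2.08 (edgeR adjusted p = 0.139). Ina, a further neuronal intermediate filament, had −3.64 (SE 1.48, edgeR adjusted p = 0.0822) in WT, and Prph, the filament of peripheral neurons, −2.60 (SE 0.94, edgeR adjusted p = 0.0642).

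Microtubule genes overlapped between the drug groups in both genotypes. Map2, which binds microtubules in dendrites, stood at 536, 648 and 57.8 CPM (WT vehicle), 267, 766 and 84.4 CPM (Runx2+/- vehicle), 37.8, 27.4 and 156 CPM (WT MS-275) and 52.3, 48.6 and 551 CPM (Runx2+/- MS-275). Dcx, which bundles microtubules in migrating young neurons, stood at 605, 763 and 38.9 CPM (WT vehicle), 323, 813 and 69.3 CPM (Runx2+/- vehicle), 20.1, 6.63 and 90.7 CPM (WT MS-275) and 29.6, 30.3 and 516 CPM (Runx2+/- MS-275). Both were lowest in WT MS-275 replicate 2 and highest in Runx2+/- vehicle replicate 2.

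Tubb3 stood at 361, 491 and 14.3 CPM (WT vehicle), 209, 438 and 54.0 CPM (Runx2+/- vehicle), 11.7, 4.42 and 71.0 CPM (WT MS-275) and 22.4, 9.97 and 303 CPM (Runx2+/- MS-275). Stmn2, the axonal stathmin, stood at 298, 356 and 29.9 CPM (WT vehicle), 186, 405 and 71.9 CPM (Runx2+/- vehicle), 27.0, 15.7 and 109.7 CPM (WT MS-275) and 88.8, 25.1 and 289.7 CPM (Runx2+/- MS-275). Stmn3 stood at 86.3, 109 and 7.76 CPM (WT vehicle), 54.8, 114 and 17.0 CPM (Runx2+/- vehicle), 3.71, 0.409 and 46.6 CPM (WT MS-275) and 26.9, 3.43 and 79.3 CPM (Runx2+/- MS-275). In all 3, as in 33 of the 40 members, WT vehicle replicate 3 lay below WT MS-275 replicate 3. In WT the log2 fold change was −2.49 (SE 1.25) for Map2, −3.58 (SE 1.54) for Dcx, −3.32 (SE 1.60) for Tubb3, −2.17 (SE 1.12) for Stmn2 and −2.003 (SE 1.49) for Stmn3. The errors were 1.12 or more on the log2 scale and none passed, with edgeR adjusted p from 0.0942 to 0.291.

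The other cytoskeletal members were Mapt, which encodes tau, at −3.87 (SE 1.69), the kinesin heavy chain Kif5c at −2.85 (SE 1.19) and Gap43 at −0.99 (SE 0.57). Gap43 kept 50.3 to 118 CPM in the low libraries, and had the narrowest range of this role. Its log2 fold change in WT was −0.99 (95% interval −2.24 to 0.27), an interval that includes 0.

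**Figure D2:**
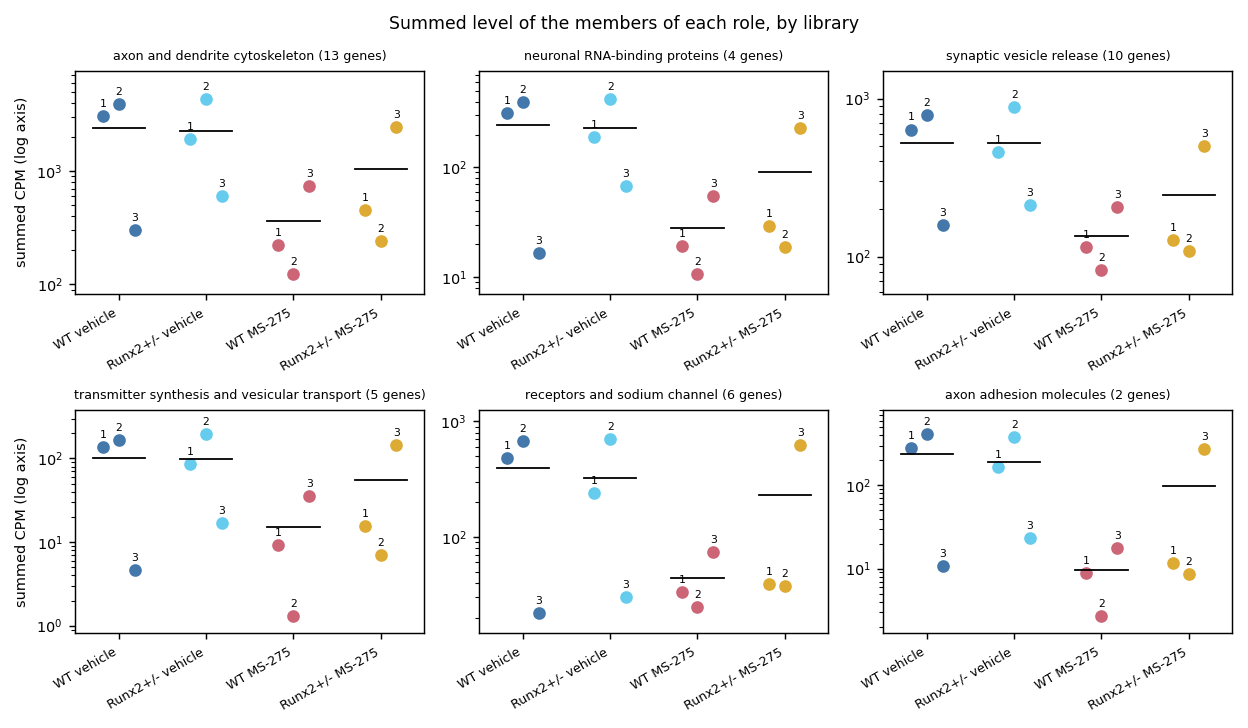
Summed CPM of the members of each role (log axis) in the 4 groups. Points are libraries with their replicate number and bars are group means. In every role replicates 1 and 2 of both vehicle groups and replicate 3 of Runx2+/- MS-275 lie above the other 7 libraries.

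Neuronal RNA-binding proteins keep and splice neuronal mRNAs. Celf4 stood at 78.1, 104 and 5.04 CPM (WT vehicle), 46.7, 108 and 13.6 CPM (Runx2+/- vehicle), 12.0, 8.92 and 22.4 CPM (WT MS-275) and 13.0, 11.0 and 69.4 CPM (Runx2+/- MS-275), and Elavl3, an Hu protein made in nearly all neurons, at 164, 203 and 4.20 CPM (WT vehicle), 87.9, 205 and 28.2 CPM (Runx2+/- vehicle), 3.45, 0.327 and 20.5 CPM (WT MS-275) and 3.16, 3.99 and 95.01 CPM (Runx2+/- MS-275). Elavl3 had 4 counts in WT MS-275 replicate 2 and reached 28.2 CPM in Runx2+/- vehicle replicate 3. Rbfox3, which encodes the nuclear antigen NeuN of mature neurons, was scarce, at 15.6, 23.9 and 1.19 CPM (WT vehicle), 11.8, 26.4 and 2.14 CPM (Runx2+/- vehicle), 0.977, 0.409 and 1.38 CPM (WT MS-275) and 1.39, 0.638 and 13.7 CPM (Runx2+/- MS-275). None of the 4 passed in WT, with log2 fold changes of −2.11 (SE 1.08) for Celf4, −3.94 (SE 1.77) for Elavl3, −3.21 (SE 1.21) for Elavl4 and −3.87 (SE 1.40) for Rbfox3.

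Among the 10 vesicle release genes, 1 passed in WT. Cplx2 (chr13:54371349-54383917, plus strand) encodes a complexin, which clamps and then helps SNARE-driven fusion, and stood at 88.1, 111 and 39.7 CPM (WT vehicle), 65.0, 102 and 43.0 CPM (Runx2+/- vehicle), 34.0, 24.6 and 32.3 CPM (WT MS-275) and 23.5, 30.2 and 51.5 CPM (Runx2+/- MS-275). Its WT groups did not overlap, and the log2 fold change was −1.39 (SE 0.43, edgeR adjusted p = 0.0487), a fall by 2.62-fold. In Runx2+/- it was −0.99 (SE 0.43, edgeR adjusted p = 0.224).

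Vamp2, the vesicle SNARE of synapses that many secretory cells also make, stood at 126, 129.8 and 79.7 CPM (WT vehicle), 113, 139 and 85.3 CPM (Runx2+/- vehicle), 50.1, 45.1 and 65.5 CPM (WT MS-275) and 48.4, 49.5 and 105 CPM (Runx2+/- MS-275). Its WT groups did not overlap either, and its difference of −1.06 (SE 0.34, edgeR adjusted p = 0.0505) had the smallest error of the 40 genes and just missed the threshold. These 2 genes had the narrowest ranges of all members, while Cplx1, the paralogue of Cplx2, went from 41.9 CPM in Runx2+/- vehicle replicate 2 to 1 count in WT MS-275 replicate 2.

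Of the other vesicle genes, the plasma membrane SNARE Snap25 ranged from 0.655 to 116 CPM and the calcium sensor Syt1 from 1.31 to 142 CPM. The vesicle membrane proteins Syp and Sv2a reached 49.3 and 80.2 CPM, and the vesicle-tethering synapsins Syn1 and Syn2 57.0 and 43.0 CPM. In WT these genes, with Syt4 and Cplx1, had log2 fold changes from −3.78 (SE 1.51) for Syt4 to −2.001 (SE 0.97) for Syn2, and edgeR adjusted p from 0.0723 to 0.171. Syn2 shares exon sequence with Timp4, and Syn1 with Araf, on opposite strands.

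Transmitter genes separate excitatory from inhibitory neurons. Slc17a6, the vesicular glutamate transporter of thalamic, brainstem and sensory neurons, stood at 26.1, 36.5 and 1.73 CPM (WT vehicle), 26.5, 55.1 and 7.23 CPM (Runx2+/- vehicle), 5.599, 0.246 and 10.2 CPM (WT MS-275) and 14.8, 2.55 and 30.6 CPM (Runx2+/- MS-275). Gad1, which makes GABA from glutamate, stood at 49.2, 56.5 and 1.24 CPM (WT vehicle), 24.8, 65.2 and 1.73 CPM (Runx2+/- vehicle), 2.08, 0.409 and 9.32 CPM (WT MS-275) and 0.186, 1.83 and 47.0 CPM (Runx2+/- MS-275). Both were highest in the 5 libraries named above. In the other 7, Slc17a6 was highest in Runx2+/- MS-275 replicate 1 and Gad1 in WT MS-275 replicate 3.

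Slc17a7, the glutamate transporter of cortical neurons, stood at 12.4, 21.5 and 0.396 CPM (WT vehicle), 10.6, 15.4 and 0.509 CPM (Runx2+/- vehicle), 0.781, 0.246 and 11.4 CPM (WT MS-275) and 0.279, 0.160 and 7.83 CPM (Runx2+/- MS-275), with 11.4 CPM in WT MS-275 replicate 3 and under 1 CPM in the other low libraries. Gad2 stood at 41.3, 43.7 and 0.692 CPM (WT vehicle), 19.7, 51.9 and 7.08 CPM (Runx2+/- vehicle), 0.456, 0.327 and 3.54 CPM (WT MS-275) and 0.371, 1.76 and 54.5 CPM (Runx2+/- MS-275), and Slc32a1, which loads GABA into vesicles, at 7.30, 8.71 and 0.593 CPM (WT vehicle), 3.51, 9.99 and 0.204 CPM (Runx2+/- vehicle), 0.195, 0.0819 and 1.04 CPM (WT MS-275) and 0, 0.638 and 4.05 CPM (Runx2+/- MS-275). In WT the log2 fold changes were −2.01 (SE 1.29) for Slc17a6, −1.47 (SE 1.74) for Slc17a7, −3.67 (SE 1.68) for Slc32a1, −3.19 (SE 1.89) for Gad1 and −4.33 (SE 1.89) for Gad2, none past the threshold.

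Among the 6 receptor and channel genes none passed in WT. Gria2, the AMPA receptor subunit that limits calcium entry, stood at 228, 313 and 4.80 CPM (WT vehicle), 104, 337 and 6.93 CPM (Runx2+/- vehicle), 4.30, 1.96 and 20.4 CPM (WT MS-275) and 5.85, 4.47 and 401 CPM (Runx2+/- MS-275). It was highest of all in Runx2+/- MS-275 replicate 3, as was Gad2, while the other 2 libraries of that group held 5.85 and 4.47 CPM. Gria1, the partner subunit, stood at 64.6, 87.6 and 6.87 CPM (WT vehicle), 38.7, 81.4 and 8.91 CPM (Runx2+/- vehicle), 12.6, 9.09 and 16.4 CPM (WT MS-275) and 14.1, 13.3 and 64.5 CPM (Runx2+/- MS-275).

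Grin2b, the NMDA receptor subunit of the fetal brain, stood at 129, 179.8 and 0.989 CPM (WT vehicle), 53.6, 179 and 1.94 CPM (Runx2+/- vehicle), 2.47, 1.23 and 11.0 CPM (WT MS-275) and 1.58, 3.91 and 90.3 CPM (Runx2+/- MS-275). The GABA-A receptor subunit Gabra2 stood at 10.2, 22.3 and 2.87 CPM (WT vehicle), 10.1, 17.2 and 2.24 CPM (Runx2+/- vehicle), 2.93, 3.36 and 8.63 CPM (WT MS-275) and 3.71, 1.68 and 11.3 CPM (Runx2+/- MS-275), and the axonal sodium channel gene Scn2a at 42.0, 54.9 and 5.69 CPM (WT vehicle), 24.5, 72.2 and 9.53 CPM (Runx2+/- vehicle), 10.3, 9.09 and 16.6 CPM (WT MS-275) and 12.6, 14.3 and 43.1 CPM (Runx2+/- MS-275). The lowest library was WT vehicle replicate 3 for Gria1, Grin2b and Scn2a, and Runx2+/- MS-275 replicate 2 for Gabra2. In WT the log2 fold changes ran from −4.41 (SE 2.05) for Grin2b to −1.25 (SE 0.93) for Gabra2, with Gria2 at −4.36 (SE 2.07), Gria1 at −2.06 (SE 0.98), Scn2a at −1.51 (SE 0.87) and Grin1 at −4.27 (SE 1.61).

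The 2 adhesion molecules had the largest fold changes in WT of all 40 genes. Cntn2, a contactin of early axons, stood at 134, 224 and 1.93 CPM (WT vehicle), 73.4, 178 and 9.68 CPM (Runx2+/- vehicle), 3.45, 0.655 and 10.4 CPM (WT MS-275) and 4.74, 2.55 and 129.5 CPM (Runx2+/- MS-275). L1cam, on which axons grow in bundles, stood at 148, 194 and 8.95 CPM (WT vehicle), 91.5, 202 and 13.8 CPM (Runx2+/- vehicle), 5.40, 2.05 and 7.25 CPM (WT MS-275) and 7.06, 6.14 and 146 CPM (Runx2+/- MS-275). For L1cam the WT groups did not overlap, since WT vehicle replicate 3 at 8.95 CPM lay just above the highest MS-275 library at 7.25 CPM. The log2 fold changes were −4.63 (SE 1.93, edgeR adjusted p = 0.0862) and −4.57 (SE 1.56, edgeR adjusted p = 0.0569).

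**Figure D3:**
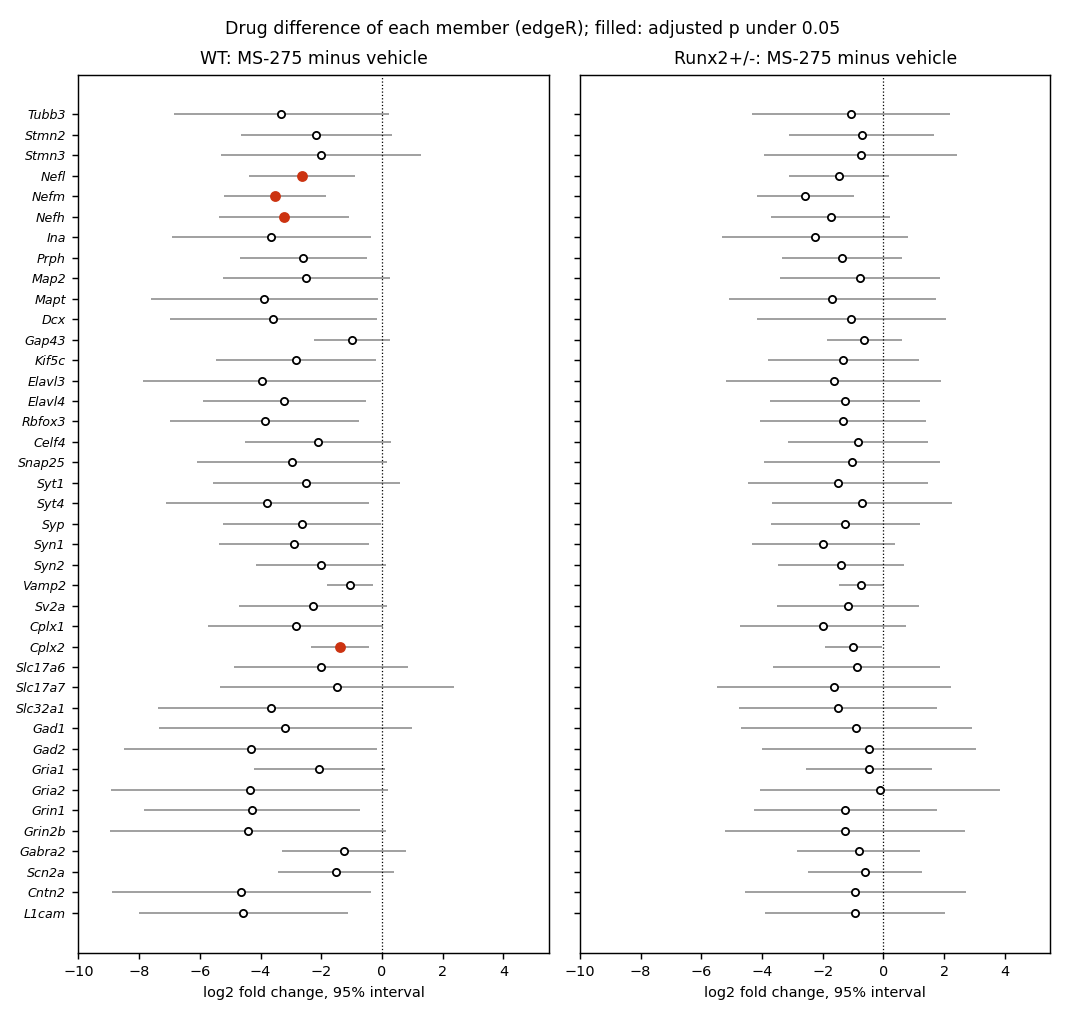
Log2 fold change of each member with its 95% interval, MS-275 minus vehicle, in WT (left) and Runx2+/- (right). Filled points are members with an edgeR adjusted p under 0.05, which are Nefl, Nefm, Nefh and Cplx2 in WT. Every point lies below 0.

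In Runx2+/- no member passed, and neither did any other gene (0% of 17967 genes by edgeR, with 3782 genes and 2 members, Nefm and Cplx2, at an unadjusted p under 0.05). DESeq2 gave an adjusted p to 13406 genes and called 1 member lower, Nefm, beside 408 genes called lower (3.04%) and 1220 in either direction. Limma-voom called 0. All 40 log2 fold changes were below 0, with a median of −1.12 for the members and −0.04 for all genes. Nefm alone had groups that did not overlap, beside 8.56% of all genes that were lower without overlap. Without replicate 3 of Runx2+/- MS-275 the median was −2.92, and 4 members were called lower beside 14.2% of all genes. These were Nefm at −2.75 (edgeR adjusted p = 0.0370), Ina at −4.90 (edgeR adjusted p = 0.0378), Vamp2 at −1.20 (edgeR adjusted p = 0.0130) and Cplx2 at −1.38 (edgeR adjusted p = 0.0431) on the log2 scale. Without Runx2+/- vehicle replicate 2, 13 of the 40 values turned above 0.

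Averaged over both genotypes, 9 members were lower with MS-275, beside 39.1% of all genes that passed in either direction and 18% that passed as lower. They were Nefl (−2.04), Nefm (−3.06), Nefh (−2.49), Ina (−2.95) and Prph (−1.98) among the filaments, Rbfox3 (−2.60), and Syn1 (−2.44), Vamp2 (−0.90) and Cplx2 (−1.19) at the synapse, as log2 fold changes. Nefl, Nefm, Nefh, Vamp2 and Cplx2 were called in each of the 12 single omissions. Ina and Prph lost the call in 9 of them and kept it without WT vehicle replicate 3, Runx2+/- vehicle replicate 3 or Runx2+/- MS-275 replicate 3. Members called were 5 in 8 of the omissions, beside 7.81% to 13% of all genes called lower, and 34 without replicate 3 of Runx2+/- MS-275, beside 33.5%. The averaged comparison shares its libraries with the comparisons within each genotype.

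The comparison of genotypes asks what 1 disrupted copy of Runx2 changes. Under vehicle, 0 members passed (edgeR, 0% of all genes, with 55 genes and 0 members at an unadjusted p under 0.05, and 0 by DESeq2 and limma-voom). The member median was −0.06, with 13 values above 0 and 27 below, from −0.46 for Cntn2 to 0.80 for Nefh. Nefl had 0.74 (95% interval −0.89 to 2.37) and Cntn2 −0.46 (95% interval −4.08 to 3.15), so differences of 4-fold in either direction were not detectable here for Cntn2.

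Under MS-275, 39 of 40 values lay above 0, in the direction of more in Runx2+/-, with a median of 1.60, and 0 members passed by edgeR, DESeq2 or limma-voom. By edgeR 0% of all genes passed, 2832 genes had an unadjusted p under 0.05 and so did 4 members, Nefl, Nefm, Nefh and L1cam. Nefl, Nefm and Nefh were higher in all 3 Runx2+/- libraries than in all 3 WT libraries. These 3 of 40 members are no larger a share than the 9.13% of all genes that were higher without overlap. The gap was narrow for Nefh, at 1.44 CPM in Runx2+/- replicate 2 against 1.43 CPM in WT replicate 1. For Nefl it was 11.6 CPM in Runx2+/- replicate 2 against 11.4 CPM in WT replicate 3. The log2 fold changes of Nefl, Nefm and Nefh were 1.91 (SE 0.77, edgeR adjusted p = 0.288), 1.62 (SE 0.71, edgeR adjusted p = 0.307) and 2.29 (SE 0.95, edgeR adjusted p = 0.294). Without replicate 3 of Runx2+/- MS-275 the member median turned to −0.24, with 27 of 40 values below 0. The interaction, which sets the drug difference of Runx2+/- against that of WT, had a median of 1.47 over the members. It passed for 0 members by edgeR (0% of all genes, with 953 genes and 0 members at an unadjusted p under 0.05), by DESeq2 and by limma-voom, and without that library its median was −0.13.

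Among the 7 libraries with little neuronal RNA the mixture of members varied. In WT MS-275 replicate 3 and Runx2+/- MS-275 replicate 1, the members summed to 1132 and 672 CPM, and 31 of the 40 genes were higher in the former. The 9 that were higher in the latter were Nefl, Nefm, Nefh, Prph, Elavl4, Rbfox3, Syt4, Slc17a6 and Grin1. Prph stood at 25.7 against 7.59 CPM, and Nefl at 40.03 against 11.4 CPM. In the other direction Gad1 stood at 0.186 against 9.32 CPM, Slc17a7 at 0.279 against 11.4 CPM, and Slc32a1 had no count against 1.04 CPM. These are values of single libraries, with no replicate check of the contrast between them.

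**Figure D4:**
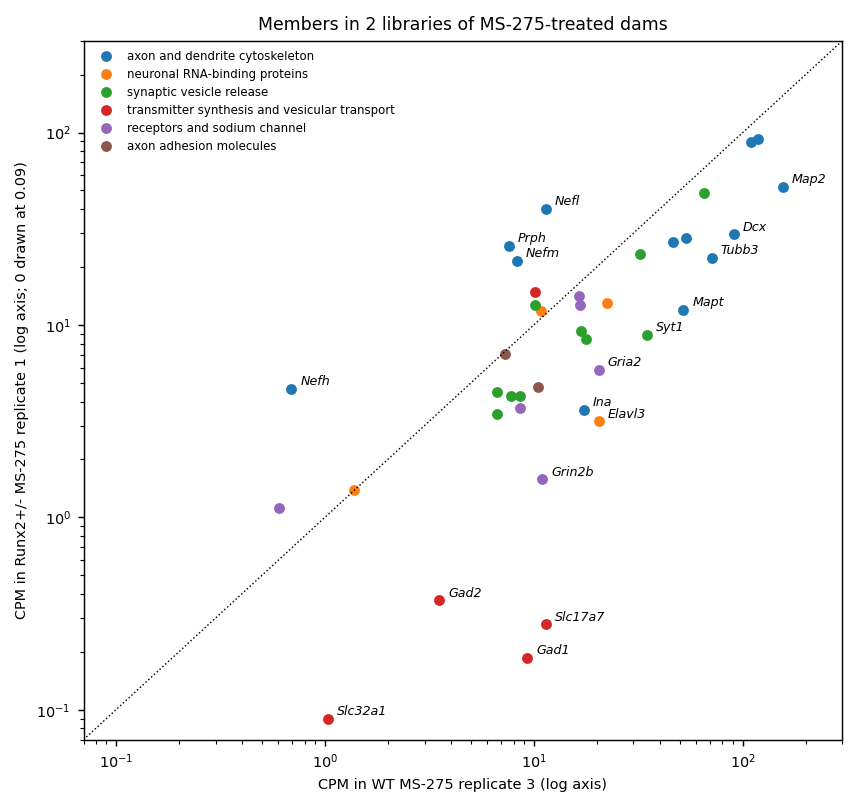
CPM of the 40 members in WT MS-275 replicate 3 (horizontal, log axis) and Runx2+/- MS-275 replicate 1 (vertical, log axis, a value of 0 drawn at 0.09), coloured by role, with the dotted line of equal levels. The filament genes Nefl, Nefm, Nefh and Prph lie above the line, and Gad1, Gad2, Slc32a1 and Slc17a7 lie far below it.

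Markers of single neuron types, counted here without members, differed in the same 2 libraries. In WT MS-275 replicate 3 the cortical factors Neurod6 and Tbr1 stood at 10.7 and 10.6 CPM and the radial glia marker Fabp7 at 255 CPM. In Runx2+/- MS-275 replicate 1 they stood at 0.371, 0.464 and 54.3 CPM, and the forebrain factor Fezf2 had no count. There the sensory neuron genes Avil and Scn10a stood at 10.0 and 5.94 CPM, against 3.36 and 0.518 CPM in the other library. These genes are part of their lists, and the list sums differed less. Forebrain excitatory markers summed to 109 CPM in WT MS-275 replicate 3 and 70.1 CPM in Runx2+/- MS-275 replicate 1. Radial glia and astrocyte markers summed to 376 and 157 CPM, and peripheral neuron markers to 42.5 and 65.8 CPM. WT MS-275 replicates 1 and 2, with lower member sums, held 112 and 132 CPM of forebrain excitatory markers. Runx2+/- vehicle replicate 3, in which Elavl3, Gad2 and Ina were higher than in the other low libraries, held Otx2, a factor of retina and other head tissues, at 29.6 CPM, the highest of all 12 libraries. Its choroid plexus markers summed to 610 CPM, against 5.34 to 163 CPM in the other vehicle libraries, and its lens markers to 17.0 CPM. WT MS-275 replicate 1 and Runx2+/- MS-275 replicate 1 held 702 and 920 CPM of choroid plexus markers. The tissue from which these transcripts came was not tested.

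Markers of brain, eye, skin and bone differed between the same libraries. Summed over 8 lens genes, the level was 12.8 to 1115 CPM in WT vehicle, 17.0 to 965 CPM in Runx2+/- vehicle, 8.01 to 11.4 CPM in WT MS-275 and 6.94 to 717 CPM in Runx2+/- MS-275. The 5 libraries rich in neuronal genes were the 5 with 717 CPM or more of lens genes, and the other 7 had 17.0 CPM or less. Cryaa, a lens crystallin, stood at 327 to 509 CPM in the former and at most 5.39 CPM in the latter. Lim2 had no count in 8 libraries, among them all 6 with MS-275.

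Summed over 8 radial glia and astrocyte genes the level was 129.6 to 455 CPM in WT vehicle, 247 to 549 CPM in Runx2+/- vehicle, 81.3 to 376 CPM in WT MS-275 and 157 to 365 CPM in Runx2+/- MS-275. Fabp7 and Slc1a3 had the highest CPM of this list. For 11 peripheral neuron genes the ranges were 30.4 to 77.4, 49.2 to 111, 22.5 to 42.5 and 32.1 to 65.8 CPM in the same order. Prph, a member, is not among these 11.

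Epidermis genes, with Krt1 and Krt10 at the highest CPM, were high in all 6 vehicle libraries. Their sum over 8 genes was 1321 to 4087 CPM in WT vehicle, 1295 to 2735 CPM in Runx2+/- vehicle and 18.2 to 21.5 CPM in WT MS-275. In Runx2+/- MS-275 it was 9.10, 19.1 and 1766 CPM. WT vehicle replicate 3 was thus rich in epidermis genes and poor in neuronal and lens genes. Osteoblast genes went the other way, with sums of 4234 to 12125 CPM in the vehicle libraries, 25621 to 51303 CPM in 5 MS-275 libraries and 1713 CPM in replicate 3 of Runx2+/- MS-275.

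In the WT drug comparison, 7 of 8 epidermis genes, 1 of 7 lens genes tested, 2 of 8 retina genes, 2 of 8 radial glia and astrocyte genes and 2 of 11 peripheral neuron genes tested were called lower. Those 11 include the member Prph, which was not called. Forebrain excitatory and inhibitory neuron lists had 0 of 9 and 0 of 8 called (7 of the 17 with an unadjusted p under 0.05, and 4 of the 17 are members). Called lower were also 4 of 8 olfactory neuron genes, 2 of 5 oligodendrocyte lineage genes, 4 of 10 Schwann cell genes, 1 of 8 skeletal muscle genes and 1 of 7 erythroid genes. The 4 choroid plexus genes lay above 0 and none was called (1 with an unadjusted p under 0.05). Of 8 osteoblast genes, 6 were called higher. Across the 12 libraries the Spearman rho of the summed members with a marker sum was 0.930 for radial glia and astrocytes, 0.881 for peripheral neurons, 0.867 for forebrain inhibitory neurons, 0.811 for lens and 0.720 for forebrain excitatory neurons. It was 0.629 for epidermis, −0.727 for osteoblasts and −0.734 for Schwann cells, the glia of peripheral nerve. The Schwann sum was led by Pmp22 (mean 112 CPM in WT vehicle and 321 CPM in WT MS-275, not called) and goes against its list, of which 9 of 10 genes lay below 0 in WT and 4 were called lower. The rho was 0.867 for the share of reads in no gene and −0.594 for the mitochondrial share. Without replicate 3 of Runx2+/- MS-275 the 11 remaining libraries gave 0.945 for radial glia, 0.636 for forebrain excitatory neurons, −0.718 for osteoblasts, 0.882 for reads in no gene and −0.573 for the mitochondrial share. All genes of a library share its tissue makeup and depth, and makeup differed between libraries, so these are descriptions. The part of tissue makeup in the drug difference of the 40 genes was not tested.

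**Figure D5:**
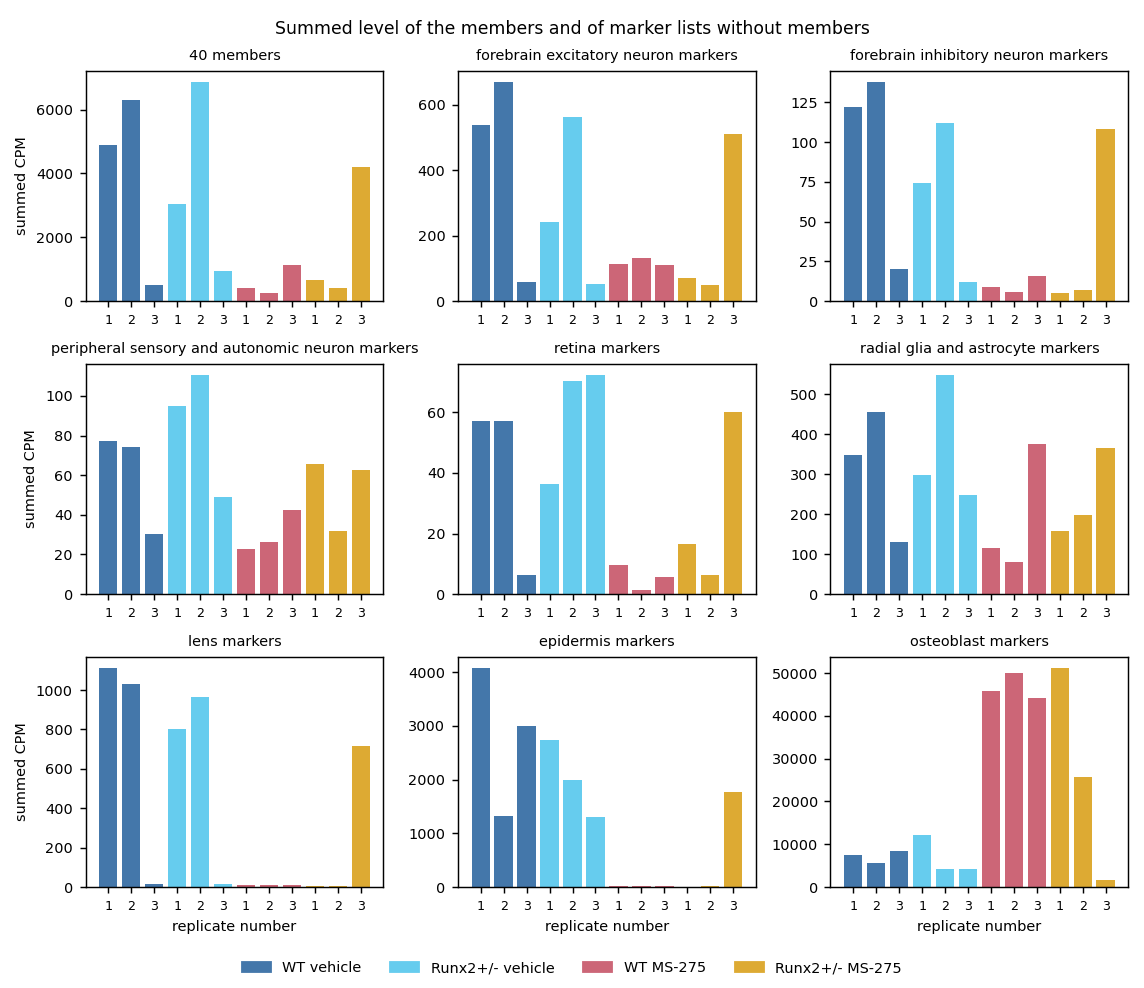
Summed CPM of the 40 members and of 8 marker lists without members (linear axes from 0), in each library, coloured by group and ordered by replicate number. The bars for members, forebrain markers and lens markers are tall in the same 5 libraries, while epidermis markers are present in all 6 vehicle libraries and in replicate 3 of Runx2+/- MS-275.

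Other neuronal genes that are not members had the same direction in WT. Of 16 further microtubule and axon transport genes, 1 was called lower and all 16 lay below 0 (median −2.05). This was Stmn1, a stathmin of dividing cells and young neurons, at −1.87 (SE 0.57, edgeR adjusted p = 0.0474). It stood at 469, 533 and 181 CPM (WT vehicle), 264, 523 and 216 CPM (Runx2+/- vehicle), 97.8, 99.5 and 127 CPM (WT MS-275) and 90.7, 99.4 and 317 CPM (Runx2+/- MS-275), and its WT groups did not overlap. Of 16 further vesicle release genes, 1 was called lower and all 16 lay below 0 (median −2.16). This was Rph3a, which encodes the vesicle protein rabphilin, at −5.42 (SE 1.46, edgeR adjusted p = 0.0434), which went from 31.0, 39.0 and 2.32 CPM (WT vehicle) to 0.716, 0.0819 and 0.863 CPM (WT MS-275).

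Of 14 genes of the postsynaptic scaffold, 1 was called lower and all 14 lay below 0 (median −1.66). This was Nlgn3, an adhesion protein of the postsynaptic side, at −2.68 (SE 0.80, edgeR adjusted p = 0.0467). Of 16 further receptors and channels none was called, 15 lay below 0 (median −2.08), and Cacna1e, a calcium channel gene, had the smallest p at −3.22 (SE 1.03, edgeR adjusted p = 0.0508). In Runx2+/- 0 genes of these 4 lists were called by edgeR, with 4 at an unadjusted p under 0.05, and medians were −0.53 to −0.99. Without replicate 3 of Runx2+/- MS-275 the medians were −1.43 to −1.94. In that fit Stmn1, Map6, Stx1a, Rph3a, Vamp1, Rab3a, Snap91, Cacna1b, Chrna3 and Grin2a were called lower and Gria3 higher, beside 14.2% of all genes called lower.

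REST is the repressor that keeps neuronal genes silent in other cells, and its corepressor complexes contain HDAC1 and HDAC2, the enzymes MS-275 inhibits. Rest stood at 59.0, 49.4 and 79.0 CPM (WT vehicle), 73.3, 51.6 and 83.3 CPM (Runx2+/- vehicle), 65.4, 69.7 and 56.6 CPM (WT MS-275) and 56.4, 74.2 and 47.5 CPM (Runx2+/- MS-275), and its WT log2 fold change was 0.03 (SE 0.24, edgeR adjusted p = 0.921). Rcor1, which encodes the corepressor CoREST, was the 1 of 8 genes of this list called in WT, at −0.69 (SE 0.16, edgeR adjusted p = 0.0434). Its levels were 80.1, 73.1 and 74.4 CPM (WT vehicle), 84.6, 70.4 and 76.6 CPM (Runx2+/- vehicle), 50.8, 49.2 and 40.5 CPM (WT MS-275) and 38.4, 44.8 and 52.4 CPM (Runx2+/- MS-275), with every MS-275 library below every vehicle library in both genotypes. Hdac1 had 0.95 (SE 0.30, edgeR adjusted p = 0.0501) and missed the threshold.

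Promoters were searched for the RE1 element to which REST binds, on both strands and with up to 4 mismatches over the 19 fixed bases of its 21. Windows of 250 bases before to 50 bases after a RefSeq gene start (GRCm38.p6) were given for 28 of the 40 members, as 37 windows. Of these 3 (8.11%) held a match, in Gad2, Gria2 and Syn1, beside 75 of 32851 windows (0.228%) in the whole table. They are printed 5′ to 3′ along the gene's strand, with the match in capitals and without bases after the outermost annotated start, and they are shown because RE1 is the best-known control element of neuronal genes.
Gad2: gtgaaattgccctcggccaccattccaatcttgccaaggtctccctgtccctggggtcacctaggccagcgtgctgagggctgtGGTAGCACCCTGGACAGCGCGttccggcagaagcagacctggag
Gria2: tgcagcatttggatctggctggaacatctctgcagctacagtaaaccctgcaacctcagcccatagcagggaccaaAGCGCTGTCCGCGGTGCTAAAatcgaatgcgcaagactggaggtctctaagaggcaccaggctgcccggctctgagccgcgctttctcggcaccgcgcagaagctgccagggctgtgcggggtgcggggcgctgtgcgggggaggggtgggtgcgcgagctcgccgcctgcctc
Syn1: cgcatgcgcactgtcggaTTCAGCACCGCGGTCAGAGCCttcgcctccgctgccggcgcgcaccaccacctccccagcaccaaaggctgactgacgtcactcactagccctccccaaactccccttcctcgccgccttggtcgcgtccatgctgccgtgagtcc
The runs lie at chr2:22622077-22622204 on the plus strand, chr3:80802836-80803085 on the minus strand and chrX:20921005-20921168 on the minus strand. The match in Gad2 has 4 mismatches and lies 146 to 166 bases before the RefSeq start. That in Gria2 has 2 mismatches, reads on the opposite strand and lies 154 to 174 bases before it, and that in Syn1 has 2 mismatches and lies 212 to 232 bases before it. A match is a stretch of letters and not a measured site.

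For the 3 genes with a match the WT log2 fold changes were −4.33 (SE 1.89, edgeR adjusted p = 0.0966) for Gad2, −4.36 (SE 2.07, edgeR adjusted p = 0.118) for Gria2 and −2.91 (SE 1.12, edgeR adjusted p = 0.0723) for Syn1, beside the member median of −2.88. Gad2 and Gria2 were the 2 members with their highest level in replicate 3 of Runx2+/- MS-275, while Syn1 stood at 15.1 CPM there against 57.0 CPM in Runx2+/- vehicle replicate 2. Without that library their log2 fold changes in Runx2+/- were −4.59 (edgeR adjusted p = 0.0674) for Gad2, −4.86 (edgeR adjusted p = 0.0799) for Gria2 and −3.08 (edgeR adjusted p = 0.0800) for Syn1, against −0.46, −0.12 and −1.98 with it.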

How the data were processed

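RNA of 12 mouse calvarial libraries was analysed, 3 in each of 4 groups taken from the labels. The deposited values are whole-number read counts per Ensembl gene, not normalized. Per the submitters' processing notes the authors used Trimmomatic, Bowtie2, SAMtools and HTSeq, whose versions are not given in the sources used here, and the notes name the build GRCh38.p7, a human build, although the identifiers are mouse. Per the labels' protocols the kit was stranded and started from total RNA. Summary entries that name no gene stayed out of library sizes (no-feature reads were 5.21% to 22.2%).

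Symbols, positions and exon lengths came from GENCODE M21 (GRCm38), with 37693 of 39179 identifiers matched, and promoter windows from RefSeq (GRCm38.p6). Of the members, 27 share no exon base with another gene, 2 overlap a gene on the same strand and 11 one on the opposite strand, and counts of those 13 are uncertain there.

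Counts were scaled by TMM (factors 0.598 to 1.33) and fitted in 1 model with 4 group means and 8 residual degrees of freedom with the quasi-likelihood test of edgeR 4.0.16 (glmQLFTest, robust, filterByExpr, common biological coefficient of variation 0.442), two-sided, with Benjamini-Hochberg adjustment over all 17967 genes kept and a threshold of 0.05. R 4.3.3, limma 3.58.1, DESeq2 1.42.0 and Python 3.11.15 were used, and the fit was checked on simulated data. Simulated counts were drawn independently for each gene, so the check does not cover genes that vary together from library to library. The standard error is the log2 fold change divided by the square root of F. Alternatives were DESeq2 size factors, library size alone, no filter, DESeq2, limma-voom, a replicate block, only the groups compared, and leaving out each library of the groups compared. A permutation of 3 against 3 libraries has a smallest exact two-sided p of 0.1, so none was run.

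The members, the pathway and marker lists and the tests were chosen with earlier results of these data known. Named genes follow a rule. Values in every library are given for members past the threshold within a genotype, the 2 most abundant of each role, and those closest to and furthest from the median member. Prph, Vamp2 and L1cam were singled out as without overlap, and the values of Gad2, Slc17a7 and Slc32a1 in every library were added after they were seen. Pathway genes are named by smallest p.

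Vehicle libraries with equal replicate numbers deviated together (correlations of deviations from group means of 0.22, 0.75 and 0.81 for numbers 1, 2 and 3), which pairs the 2 vehicle groups by the data, not by the labels. The pairing is weak for number 1, since WT vehicle 1 correlated more with Runx2+/- vehicle 2 (0.68) and with Runx2+/- MS-275 replicate 3 (0.61) than with its own number. For WT vehicle and WT MS-275 these were −0.04, −0.41 and −0.31, for the Runx2+/- groups −0.25, −0.56 and −0.66, and for the MS-275 groups −0.20, 0.28 and 0.17.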

Additional observations from a re-analysis of the deposited data

How the results depend on the processing

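All 40 log2 fold changes in the WT drug comparison and all 40 in the averaged one stayed below 0 under every alternative run. Counts of calls moved. Members called lower in WT were 15 with library size alone, 0 without a filter, 25 by DESeq2, 0 by limma-voom and 12 with only the groups compared. In the same order, 39%, 0%, 21.8%, 0.00557% and 23.4% of all genes were called lower, and genes called in either direction were 7535, 0, 7223, 1 and 7309. With library size alone 7009 of the 7535 genes were lower, against 1676 of 3414 with TMM. In the averaged comparison members called lower were 19, 5, 26 and 4 with the first 4 of these alternatives, beside 45.3%, 9.01%, 24.4% and 14.5% of all genes called lower. Scaling by library size alone shifted the median of all genes in WT from −0.13 to −0.95 and that of the members from −2.88 to −3.84. DESeq2 called 1 member and 1220 genes in Runx2+/-, where 3.04% of the 13406 genes it tested were called lower. It called 702 genes between genotypes under MS-275 and 38 in the interaction. Without a filter 29218 genes were tested. Between genotypes under vehicle the member median was −0.06 with TMM and with DESeq2 size factors, −0.05 with library size alone and 0.20 by limma-voom. The cause of the other changes was not tested.

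With the replicate block 0 members and 0 genes were called in WT. In the averaged comparison 3 members (Nefm, Vamp2 and Cplx2) were called lower beside 9.46% of all genes, with 4371 genes called in either direction. It changed no call in the other comparisons, and for the vehicle groups, fitted alone with the block (chosen after seeing the data), 0 members were called. The drug groups share only a number, so a call lost under the block is not a weaker effect.

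Leaving out 1 library at a time gave 0 to 16 members and 0 to 5601 genes in WT, 0 to 4 members and 0 to 5955 genes in Runx2+/-, and 5 to 34 members and 3741 to 11241 genes averaged. The shares of all genes called lower were 0% to 16.7%, 0% to 14.2% and 7.81% to 33.5%. For each comparison only libraries of its own groups were left out. The WT comparison was thus not refitted without Runx2+/- MS-275 replicate 3, although its fit takes the spread from all 12 libraries. The highest counts came without WT vehicle replicate 3 in WT and without Runx2+/- MS-275 replicate 3 in the others. Genes called between genotypes under MS-275 were 0 to 23 and in the interaction 0 to 1. Member medians were −4.33 to −2.36 in WT, −2.92 to −0.23 in Runx2+/-, −3.002 to −1.65 averaged, −0.96 to 0.45 between genotypes under vehicle, −0.24 to 2.68 under MS-275 and −0.13 to 2.74 in the interaction. In Runx2+/-, leaving out vehicle replicate 2 turned 13 members above 0, and leaving out MS-275 replicate 3 gave their lowest values. Their ranges over single omissions were, as log2 fold changes, Stmn2 (−1.96 to 0.061), Stmn3 (−2.03 to 0.032), Map2 (−2.88 to 0.31), Celf4 (−2.22 to 0.052), Syt4 (−2.83 to 0.43), Gad1 (−4.87 to 0.31), Gad2 (−4.59 to 0.50), Gria1 (−1.65 to 0.37), Gria2 (−4.86 to 1.31), Grin2b (−4.81 to 0.21), Scn2a (−1.40 to 0.46), Cntn2 (−4.58 to 0.14) and L1cam (−3.96 to 0.017). Gad2 and Gria2 were also above 0 without Runx2+/- MS-275 replicate 1 (0.10 and 0.44) or 2 (0.07 and 0.45).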
